A study of Homo sapiens with 8 samples.

Results

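The genes described here are regulators and targets of NF-kappaB, a family of transcription factors that answers to cytokines, microbial products and cell stress. The list held 10 genes: CCL20, NFKBIA, TNFAIP3, CXCL8, CXCL1, CXCL2, BIRC3, RELB, NFKB1 and ICAM1. Members were all probe sets whose platform annotation, updated through gene identifiers, gave 1 of these symbols. This found 16 of the 54675 probe sets, for 9 of the 10 genes among 19775 genes in all. No probe set carried BIRC3, an inhibitor of apoptosis, in the annotation used here, so its expression is not analysed here. A gene with several probe sets was represented by the one with the highest mean over all arrays, and its other probe sets are given as well.

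RNA was measured in cells treated with 10 µM EerI, 10 µM CBU-028 or 10 µM 5-NA for 10 h, and in control cells, with 2 arrays in each of these groups. All groups were 293T cells, a line grown from human embryonic kidney that expresses the large T antigen of SV40. EerI was studied as an inhibitor of p97, an ATPase that pulls ubiquitinated proteins out of membranes and complexes on their way to the proteasome. 5-NA is the nitrofuran-containing unit of EerI without the aromatic domain of EerI. CBU-028, a further compound of the study, carries the same nitrofuran-containing unit joined to a different group with a benzene ring. Whether control cells received solvent is not stated for the arrays, and every group rests on a single cell line. In the titles of the arrays labelled 5-NA stands the experiment number of another compound in the study's list, CBU-029. Their source and description labels name 5-NA, and they were taken as 5-NA on that basis.

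In resting cells NF-kappaB dimers are held in the cytoplasm by IkappaB proteins such as the product of NFKBIA. Signals from receptors activate the IkappaB kinase, IkappaB is ubiquitinated and destroyed by the proteasome, and the freed dimers enter the nucleus. In a second route the precursor encoded by NFKB2 is processed to give dimers with RELB. Among the genes switched on are the pathway's own brakes, NFKBIA and TNFAIP3, and chemokines that call in leukocytes.

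Values are log2 expression values from the RMA algorithm, so a difference of 1 is a 2-fold change, and levels of different probe sets cannot be set against each other. Array medians lay between 6.89 and 6.93. Duplicate arrays had a median absolute difference of 0.0809 for EerI, 0.139 for CBU-028, 0.104 for 5-NA and 0.0738 for control. The residual SD over the member genes was 0.0560 for EerI, 0.119 for CBU-028, 0.139 for 5-NA and 0.0928 for control. The 3' minus 5' difference of ACTB, a sign of RNA integrity, was 0.363 on the array of 5-NA replicate 2 and 0.0743 to 0.196 on the other 7. Markers of the 293T line had mean levels of 6.70 to 13.7 (6 genes), and genes that define other cell types 4.63 to 9.15 (12 genes). Of those 12, CD14 alone differed from control, being 1.06 higher with 5-NA (limma, adjusted p = 0.00102). Of the 6 markers of the line, KRT8 was 0.29 higher with 5-NA (limma, adjusted p = 0.0414). The part of these values in the results for 5-NA was not tested.

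The stretches upstream of these genes are shown because the members are grouped as NF-kappaB targets. RefSeq (GRCh38.p14) gave a window of 250 bases before the start site for 9 of the 10 genes, with 10 windows in all. These are not the 9 measured genes, since they hold BIRC3 and lack RELB. The letters GGAANNNCC, on either strand, were in 9 of the 10 windows, with a match for every gene. They were in 17.1% of all 35116 windows of that length. The longer kappaB consensus, which overlaps these letters, was in 7 of the 10 windows, of 7 genes, and in 9.96% of all windows. The motif was chosen after the sequences were seen, and a match is a description of letters, not of binding. The following stretches of the 8 measured genes with a window, read along the strand of each gene, have the 9 letters of a match in capitals.
CCL20: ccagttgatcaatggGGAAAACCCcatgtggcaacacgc
CXCL8: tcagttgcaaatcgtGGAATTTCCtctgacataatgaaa
CXCL1: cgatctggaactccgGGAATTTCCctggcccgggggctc
CXCL2: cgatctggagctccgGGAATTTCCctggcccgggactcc
NFKB1: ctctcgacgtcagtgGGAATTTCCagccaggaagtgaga
NFKBIA: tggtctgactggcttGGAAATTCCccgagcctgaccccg
TNFAIP3: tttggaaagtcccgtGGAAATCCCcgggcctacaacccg
ICAM1: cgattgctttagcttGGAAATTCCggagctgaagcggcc

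The stretch of CCL20 was at chr2:227813748-227813786 and its match ended 71 bases before the start site. That of CXCL8 was at chr4:73740463-73740501, that of CXCL1 at chr4:73869300-73869338 and that of CXCL2, on the minus strand, at chr4:74099249-74099287. The 3 CXC chemokine genes share the letters GGAATTTCC with NFKB1, at chr4:102501296-102501334. The stretch of NFKBIA, on the minus strand, was at chr14:35404807-35404845, that of TNFAIP3 at chr6:137867189-137867227 and that of ICAM1 at chr19:10270919-10270957. The stretch of TNFAIP3 lies inside the annotated gene, which spans chr6:137866349-137883312, so the start site used for it is not the first of that gene.

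The members did not move as a group with any compound. With EerI, none of the 9 measured genes passed the test against control. With CBU-028, CXCL8 was higher by 1 of its 2 probe sets, and no gene passed the test by its representative probe set. With 5-NA, CCL20 fell to 0.483 times its control level and RELB rose 1.31-fold, while the other 7 genes did not pass the test. In bulk RNA, fewer expressing cells and less RNA per cell cannot be told apart.

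**Figure D1:**
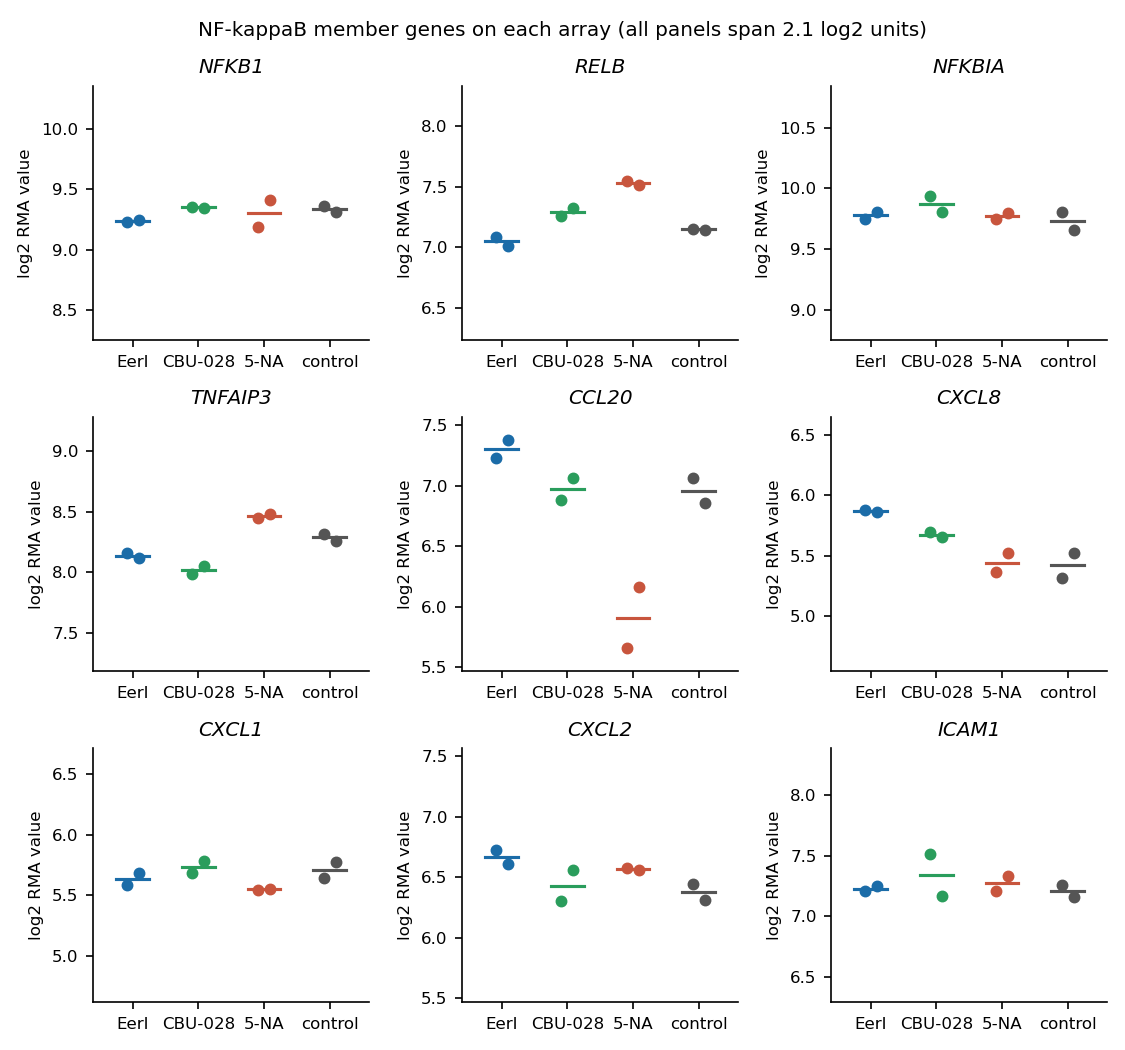
Log2 expression value of the representative probe set of each measured member gene (vertical axis) on each array (points), by group (horizontal axis: EerI, CBU-028, 5-NA and control, 2 arrays each), with horizontal bars at the group means. All panels span the same number of log2 units, and the 5-NA arrays stand below all others for CCL20 and above all others for RELB and TNFAIP3.

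Against these counts stand the shares of all 19775 genes past the same threshold, an adjusted p under 0.05 in limma with no fold threshold. With EerI, 0 members were higher and 0 lower, against 0.506% of all genes higher and 0.263% lower. Without adjustment 2 members (22.2%) had p under 0.05 with EerI, against 11.8% of all genes, and the ANOVA named in the methods, once adjusted, called 0. With CBU-028, 0 members were higher and 0 lower, against 5.49% of all genes higher and 7.1% lower. Here 2 members (22.2%) had an unadjusted p under 0.05, against 26.9% of all genes, and the adjusted ANOVA called 1, TNFAIP3. With 5-NA, 1 member was higher and 1 lower, against 7.87% of all genes higher and 10.9% lower, and 3 (33.3%) had an unadjusted p under 0.05, against 31.4% of all genes. The share of members called was thus close to the background or below it. The median log2 difference of the members was 0.02 with EerI, 0.05 with CBU-028 and 0.04 with 5-NA, against -0.00, -0.01 and -0.03 over all genes. These comparisons share the 2 control arrays.

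Among the subunits, RELB, which pairs with the products of NFKB1 and NFKB2, was the member that rose. RELB was at 7.08 and 7.01 with EerI, 7.26 and 7.33 with CBU-028, 7.55 and 7.52 with 5-NA, and 7.15 and 7.14 in control cells. The 5-NA arrays stood above all others and the EerI arrays below all others, with no overlap between any of the groups. RELB was 0.38 ± 0.0772 (SE) higher with 5-NA than in control cells, on the log2 scale (limma, adjusted p = 0.0105). This call was lost without 5-NA replicate 1 (adjusted p = 0.0545), control replicate 1 (adjusted p = 0.0786) or control replicate 2 (adjusted p = 0.0847), with differences of 0.37 to 0.40 over all left-out arrays. The order of the means was 5-NA, CBU-028, control and EerI, and no neighbours in it passed the test (limma, adjusted p = 0.0854, 0.314 and 0.790).

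NFKB1 encodes the precursor of the p50 subunit, which has a DNA-binding domain but no activation domain of its own. It was at 9.23 and 9.25 with EerI, 9.35 and 9.35 with CBU-028, 9.19 and 9.41 with 5-NA, and 9.36 and 9.31 in control cells. The 5-NA arrays spanned those of every other group. The differences from control were -0.10 with EerI, 0.01 with CBU-028 and -0.04 with 5-NA, with 95% intervals that lay between -0.31 and 0.22 in all 3 cases.

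NFKBIA encodes IkappaBalpha, which the pathway makes anew after each activation. Its representative probe set was at 9.75 and 9.81 with EerI, 9.94 and 9.81 with CBU-028, 9.74 and 9.79 with 5-NA, and 9.81 and 9.66 in control cells. Every treated group overlapped the control arrays. The differences from control were 0.05, 0.14 and 0.04 with EerI, CBU-028 and 5-NA, none past the test, and the 95% intervals ended at 0.25, 0.34 and 0.24. Its second probe set differed from control by -0.07 with EerI, -0.00 with CBU-028 and -0.02 with 5-NA.

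TNFAIP3 encodes A20, an enzyme that edits ubiquitin chains and shuts off signals to the IkappaB kinase. It was at 8.16 and 8.11 with EerI, 7.98 and 8.05 with CBU-028, 8.45 and 8.48 with 5-NA, and 8.31 and 8.26 in control cells. The 4 groups did not overlap, and the compounds lay on both sides of control. With CBU-028 the difference from control was -0.27 ± 0.0770 (SE; limma, adjusted p = 0.0600), with EerI -0.15 (adjusted p = 0.595) and with 5-NA 0.18 (adjusted p = 0.178). None of these 3 passed the test. For CBU-028 the adjusted p was 0.0438 in the methods' ANOVA, 0.0467 when only representative probe sets were adjusted, and 0.0454 and 0.0184 without probe sets of mean value under 5 and under 7. The other probe set of TNFAIP3 differed from control by -0.38 with CBU-028 (limma, adjusted p = 0.0860), -0.17 with EerI and -0.06 with 5-NA, where the sign was opposite to that of the representative.

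CCL20, a chemokine that draws cells bearing the receptor CCR6, had the largest difference of any member. It was at 7.23 and 7.37 with EerI, 6.88 and 7.06 with CBU-028, 5.66 and 6.16 with 5-NA, and 7.06 and 6.86 in control cells. Both 5-NA arrays lay below every other array, and the CBU-028 arrays overlapped those of control cells. CCL20 fell by 1.05 ± 0.156 (SE) on the log2 scale with 5-NA relative to control (limma, adjusted p = 0.00278, lower in 2 of 2 arrays). It was 1 of 33 genes in all that were called lower by at least 2-fold with 5-NA, while 105 were higher by as much. With EerI the difference was 0.34 ± 0.156 (adjusted p = 0.532) and with CBU-028 0.01 (95% interval -0.34 to 0.36), neither past the test.

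The 2 arrays of 5-NA differed by more for CCL20 than those of any other group. Without 5-NA replicate 1, the lower of these, the difference from control was -0.80, and without 5-NA replicate 2, the array with the highest ACTB difference, it was -1.30. The call held with each of the 8 arrays left out in turn, with the highest adjusted p at 0.0313 in limma. In the ANOVA of the methods, which takes the spread of each probe set alone, the unadjusted p was 0.00731, so that CCL20 passed the methods' own thresholds of an unadjusted p under 0.05 and 2-fold. With adjustment added, the ANOVA gave an adjusted p of 0.0681 and CCL20 was no longer called.

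The 5 genes whose values over the 6 treated arrays lay nearest to those of CCL20, each relative to its control mean, were TMEM129, PI15, GPX8, ZNF623 and TMEM42. Their distances in log2 units were 0.45, 0.49, 0.50, 0.54 and 0.54. GPX8, for example, had log2 differences of 0.39 with EerI, -0.11 with CBU-028 and -0.81 with 5-NA, and TMEM129 had 0.23, -0.07 and -0.89. None of the 5 was a member.

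CXCL8 encodes interleukin-8, a chemokine for neutrophils. Its representative probe set was at 5.88 and 5.87 with EerI, 5.70 and 5.65 with CBU-028, 5.36 and 5.52 with 5-NA, and 5.32 and 5.53 in control cells. The EerI arrays were above all others and the CBU-028 arrays above those of control cells, while the 5-NA arrays lay within the span of the control arrays. The difference from control was 0.45 ± 0.0966 (SE) with EerI, a 1.37-fold level, with an unadjusted p of 0.00116 and an adjusted p of 0.107 in limma. It passed the test only when p-values were adjusted over all 6 comparisons together (adjusted p = 0.0223) or arrays were weighted (adjusted p = 0.0216). With CBU-028 the difference was 0.25 (limma, adjusted p = 0.151) and with 5-NA 0.02 (adjusted p = 0.922).

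The other probe set of CXCL8 was at 5.96 and 5.59 with EerI, 6.001 and 5.91 with CBU-028, 4.94 and 5.22 with 5-NA, and 5.42 and 5.35 in control cells. Here both EerI and CBU-028 lay above control, and 5-NA below it. With CBU-028 the difference was 0.57 ± 0.134 (SE; limma, adjusted p = 0.0293), the only member probe set called with that compound. The call was lost without CBU-028 replicate 1, control replicate 1 or control replicate 2, with adjusted p up to 0.164 and differences of 0.53 to 0.62 over all left-out arrays. With EerI the difference was 0.39 (adjusted p = 0.346) and with 5-NA -0.30 (adjusted p = 0.182). The probe sets thus had the same sign for EerI and CBU-028 and different signs for 5-NA.

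CXCL1 and CXCL2, closely related chemokines that act on the same receptor as CXCL8, did not pass the test with any compound. CXCL1 was at 5.59 and 5.69 with EerI, 5.68 and 5.79 with CBU-028, 5.54 and 5.55 with 5-NA, and 5.64 and 5.77 in control cells. Its differences from control were -0.07, 0.03 and -0.16 with EerI, CBU-028 and 5-NA, and only the 5-NA arrays stood apart from control. CXCL2 was at 6.73 and 6.61 with EerI, 6.31 and 6.56 with CBU-028, 6.58 and 6.56 with 5-NA, and 6.44 and 6.31 in control cells. The EerI and 5-NA arrays were above both control arrays. Its differences were 0.29 with EerI (limma, adjusted p = 0.364), 0.05 with CBU-028 and 0.19 with 5-NA (adjusted p = 0.278). A second probe set of CXCL2 differed by 0.14, 0.15 and 0.31, and the remaining one by 0.01, -0.02 and 0.10. CXCL1, CXCL2 and CXCL3 are closely similar in sequence, so the assignment of signal among them is uncertain.

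ICAM1, an adhesion molecule to which leukocytes bind, was at 7.21 and 7.25 with EerI, 7.52 and 7.16 with CBU-028, 7.21 and 7.34 with 5-NA, and 7.26 and 7.16 in control cells. All groups overlapped. Over its 3 probe sets the differences from control were 0.02 to 0.08 with EerI, -0.11 to 0.13 with CBU-028 and -0.09 to 0.10 with 5-NA. The 95% interval of the representative probe set was -0.25 to 0.28 with EerI, -0.13 to 0.39 with CBU-028 and -0.20 to 0.33 with 5-NA.

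**Figure D2:**
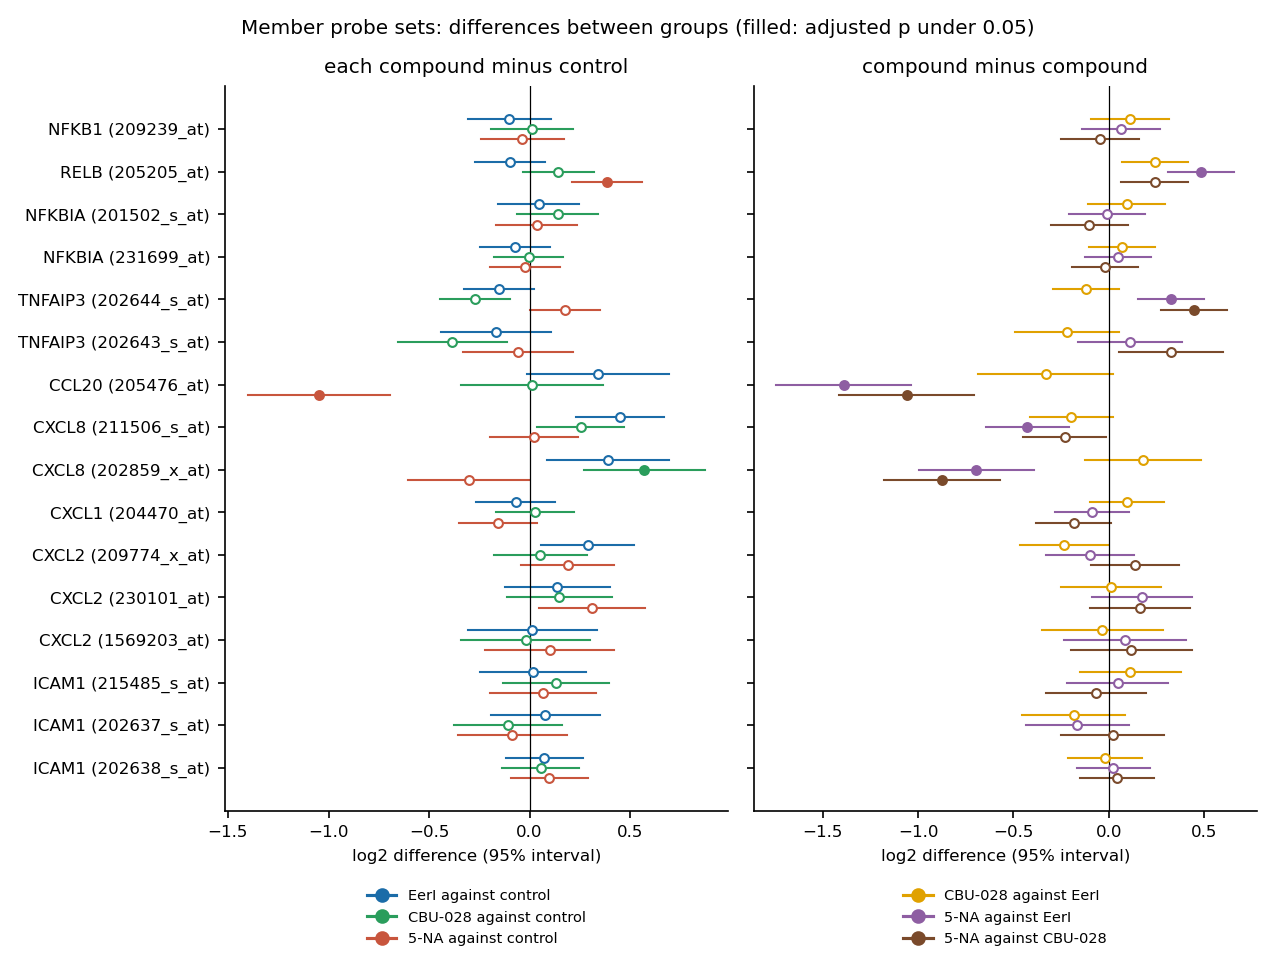
Log2 difference (horizontal axis) of each member probe set (rows), with its 95% interval from limma, for each compound minus control (left) and for each pair of compounds (right); filled points have an adjusted p under 0.05. CCL20 is at -1.05 with 5-NA against control and RELB at 0.38, the filled points of representative probe sets on the left.

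The compounds were next compared with each other, in 3 pairs at the same dose and time, with p-values adjusted over all probe sets of a pair. Past the test were 4 members for 5-NA against EerI and 2 for 5-NA against control, and the difference between these counts was not tested. Of all genes, 7.93% were higher and 9.66% lower in the first of these comparisons, and 7.87% and 10.9% in the second. Between CBU-028 and EerI no member passed the test. Adjusting over all 6 comparisons together changed no call of a member between compounds.

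In 5-NA against EerI, which differ by the aromatic domain, 2 members were higher and 2 lower, against 7.93% of all genes higher and 9.66% lower. CCL20 had a log2 difference of -1.39 ± 0.156 (SE; limma, adjusted p = 0.000968), 0.381 times the EerI level, and the call held with each array left out. RELB was 0.48 ± 0.0772 higher (adjusted p = 0.00410), and this call also held with each array left out. CXCL8 had a difference of -0.43 ± 0.0966 (adjusted p = 0.0188) by its representative probe set and -0.70 ± 0.134 (adjusted p = 0.00942) by the other. The first was lost without EerI replicate 1, EerI replicate 2 or 5-NA replicate 1, with adjusted p up to 0.117, and the second without EerI replicate 1 or 5-NA replicate 1, with adjusted p up to 0.0808. In the adjusted ANOVA the first also missed the threshold (adjusted p = 0.0868). TNFAIP3 was 0.33 ± 0.0770 higher (adjusted p = 0.0226) by its representative probe set, while the other differed by 0.11 (adjusted p = 0.643), with groups that overlapped. Its call held only without CBU-028 replicate 1 or CBU-028 replicate 2, and the adjusted p reached 0.143 without EerI replicate 2.

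In 5-NA against CBU-028, 1 member was higher and 1 lower, against 6.47% of all genes higher and 7.33% lower. CCL20 had a difference of -1.06 ± 0.156 (SE; limma, adjusted p = 0.00413), which missed the threshold in the adjusted ANOVA (adjusted p = 0.0832) and passed the methods' own thresholds (unadjusted p = 0.00705 in the ANOVA, 2-fold). TNFAIP3 was 0.45 ± 0.0770 higher with 5-NA (adjusted p = 0.00788), a 1.36-fold level, by its representative probe set, and the other differed by 0.33 (adjusted p = 0.132). The adjusted p of the representative was 0.0632 when those groups were fitted alone. Both limma calls held with each array left out. The probe set of CXCL8 that was higher with CBU-028 than in control cells was lower with 5-NA than with CBU-028, by a log2 difference of -0.88 ± 0.134 (adjusted p = 0.00473), a call that held with each array left out. The representative probe set of CXCL8 differed by -0.23 (adjusted p = 0.181).

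In CBU-028 against EerI, 0 members were higher and 0 lower in limma, against 1.6% of all genes higher and 2.13% lower. There were 2 members (22.2%) with an unadjusted p under 0.05, RELB at 0.24 and CXCL2 at -0.24, against 19.2% of all genes, and the adjusted ANOVA called 0. The difference of CCL20 was -0.33 with a 95% interval of -0.68 to 0.02, and that of CXCL8 was -0.20 with an interval of -0.41 to 0.02. For NFKBIA the interval ran from -0.11 to 0.30 and for NFKB1 from -0.09 to 0.32, which leaves room for small differences either way.

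CXC chemokine genes near CXCL8 were described with it, since CXCL8, CXCL6, CXCL1, CXCL5, CXCL3 and CXCL2 lie in this order along chromosome 4. Any other genes between them were not looked at. CXCL6, which also acts on neutrophils, was at 6.69 and 6.46 with EerI, 5.73 and 5.78 with CBU-028, 6.27 and 6.48 with 5-NA, and 6.77 and 6.94 in control cells. All treated arrays lay below both control arrays, those of CBU-028 lowest. CXCL6 fell by 1.09 ± 0.111 (SE) on the log2 scale with CBU-028 (limma, adjusted p = 0.000765), with each array left out too. With 5-NA the difference was -0.48 (adjusted p = 0.0203), a call lost without 5-NA replicate 1, control replicate 1 or control replicate 2 (adjusted p up to 0.156). With EerI it was -0.28 (adjusted p = 0.452).

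CXCL3 had a difference of 0.47 with 5-NA (limma, adjusted p = 0.0359), and this call held only without CBU-028 replicate 1 or CBU-028 replicate 2. Its differences were 0.25 with EerI and 0.37 with CBU-028, neither past the test. CXCL5 differed by 0.03, 0.16 and 0.10 with EerI, CBU-028 and 5-NA. CXCL10 and CXCL11, which lie apart from these and act on T cells, differed by -0.23 to 0.25 over the compounds, with no call. The chemokine genes described from this stretch of chromosome 4 thus had values on both sides of control with the same compound.

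**Figure D3:**
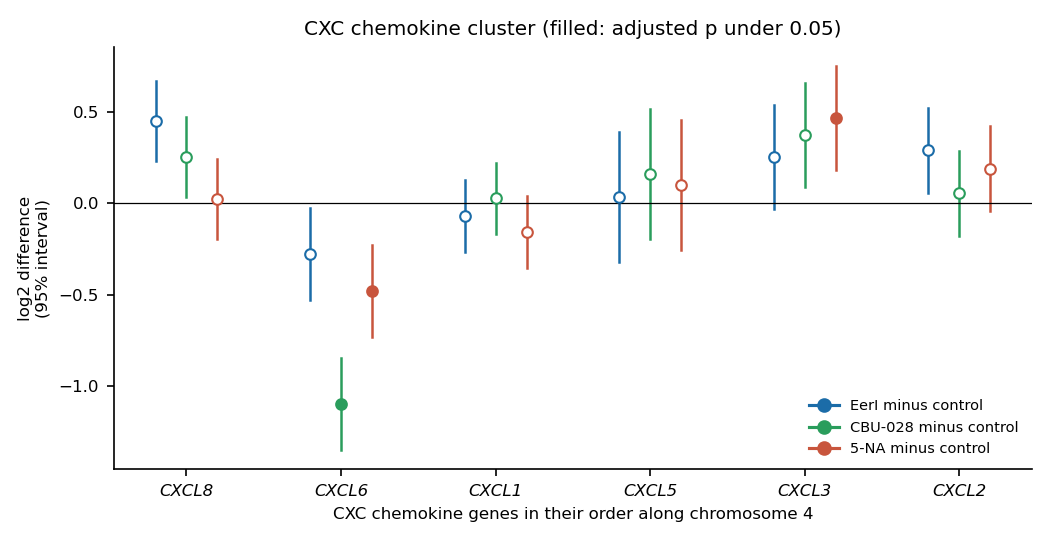
Log2 difference from control (vertical axis) with its 95% interval from limma for the CXC chemokine genes in their order on chromosome 4 (horizontal axis), for EerI, CBU-028 and 5-NA; filled points have an adjusted p under 0.05. CXCL6 is at -1.09 with CBU-028 and -0.48 with 5-NA, while CXCL3 is at 0.47 with 5-NA.

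A list of 85 further genes of the pathway, of which 78 had a probe set, was counted in the same way. Each call in this list rests on the representative probe set alone, and other probe sets of these genes are not given. With EerI, 0 were higher and 0 lower in limma, with 8 (10.3%) at an unadjusted p under 0.05, against 11.8% of all genes, and 0 by the adjusted ANOVA. With CBU-028, 8 were higher and 6 lower, against 5.49% of all genes higher and 7.1% lower. The unadjusted p in limma was under 0.05 for 30 (38.5%), against 26.9% of all genes. With 5-NA, 16 were higher and 5 lower, against 7.87% of all genes higher and 10.9% lower. Here 32 (41%) had an unadjusted p under 0.05 in limma, against 31.4% of all genes. The median log2 difference of the list was 0.02 with EerI, 0.03 with CBU-028 and 0.09 with 5-NA, against -0.00, -0.01 and -0.03 over all genes. The counts depended on single arrays: with 5-NA, 6 genes were called without control replicate 2, 7 without control replicate 1, 11 without 5-NA replicate 1 and 12 without 5-NA replicate 2. With CBU-028, 3 were called without either control replicate and 6 without either EerI replicate.

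The remaining subunits, RELA, REL and NFKB2, did not pass the test with any compound. RELA, the main activating subunit, differed by -0.09 with EerI, 0.09 with CBU-028 and -0.00 with 5-NA, NFKB2 by 0.07, 0.22 and 0.10, and REL by 0.05, -0.29 and 0.11. Of 4 IkappaB genes other than NFKBIA, 2 were called with 5-NA, both higher, against 7.87% of all genes higher and 10.9% lower. With CBU-028, 2 were called, 1 each way, against 5.49% of all genes higher and 7.1% lower. NFKBIZ, which encodes a nuclear IkappaB protein that acts with p50 on late target genes, was at 7.40 and 7.47 with EerI, 7.12 and 7.34 with CBU-028, 8.20 and 7.97 with 5-NA, and 7.27 and 7.15 in control cells. The 5-NA arrays stood above all others. It was 0.88 ± 0.108 (SE) higher with 5-NA than control (limma, adjusted p = 0.00124), with each array left out too.

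NFKBIE, a cytoplasmic inhibitor, was 0.42 higher with 5-NA (limma, adjusted p = 0.0195), a call lost without either 5-NA or either control replicate. NFKBIB, another, was 0.37 higher with CBU-028 (adjusted p = 0.0181), a call lost without either control replicate. NFKBID was lower with CBU-028, at -0.35 (adjusted p = 0.0361), a call that held only without CBU-028 replicate 2.

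Among the remaining genes, the largest calls with 5-NA were all higher. PTGS2, the inducible cyclooxygenase, was at 5.48 and 5.88 with EerI, 6.08 and 6.19 with CBU-028, 6.33 and 6.32 with 5-NA, and 5.37 and 5.01 in control cells. Every treated array lay above both control arrays. The log2 difference from control was 1.14 with 5-NA (limma, adjusted p = 0.00155), 0.95 with CBU-028 (adjusted p = 0.00502) and 0.49 with EerI (adjusted p = 0.261), and the first 2 calls held with each array left out. IL1A, a cytokine that itself activates NF-kappaB, was 0.85 higher with 5-NA, and IRF1, a transcription factor of the interferon response, 0.83 higher. CYLD, which removes ubiquitin chains from signalling proteins and so restrains the pathway, was 0.68 higher, and SOD2, the mitochondrial superoxide dismutase, 0.66 higher. These 4 calls held with each array left out, with adjusted p up to 0.0467 in limma.

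With CBU-028, PTX3, a secreted pattern recognition protein, was at 5.77 and 5.65, against 6.96 and 6.62 in control cells. It fell by 1.08 on the log2 scale (limma, adjusted p = 0.000906), with each array left out too. The probe sets of PTGS2, PTX3 and CXCL6 were dim, with means over all arrays of 5.83, 6.39 and 6.39. These lie within the range of the genes that define other cell types, 4.63 to 9.15. The means of NFKBIZ, IL1A, IRF1 and CYLD also lay in that range, at 7.49, 7.42, 8.34 and 8.46. So did those of CXCL3, NFKBIE and NFKBID, at 7.17, 8.24 and 7.81. The means of SOD2 and NFKBIB lay above it, at 9.92 and 9.63. TRAF5, an adaptor of receptors of the TNF family, differed by -0.46 with CBU-028 (limma, adjusted p = 0.0285). TNFRSF1A, the main TNF receptor, differed by 0.45 (adjusted p = 0.0375) and TAX1BP1, an adaptor with which A20 works, by 0.43 (adjusted p = 0.0279). These last 3 calls were each lost without either EerI replicate, CBU-028 replicate 1 or either control replicate, and that of TNFRSF1A also without CBU-028 replicate 2.

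Of the calls in the list, 6 of 21 with 5-NA and 3 of 14 with CBU-028 held with each array left out. By role, 4 of the 9 negative regulators were higher and 0 lower with 5-NA, and 3 were higher and 1 lower with CBU-028. Of these, 1 with 5-NA, CYLD, and 0 with CBU-028 held with each array left out. Of 10 kinases, 2 were higher and 1 lower with 5-NA, and 2 higher and 0 lower with CBU-028. Of 13 receptors and adaptors, 2 were higher and 0 lower with 5-NA, and 1 higher and 2 lower with CBU-028. Among 14 other cytokines and chemokines, 2 were higher and 1 lower with 5-NA, and 0 were called with CBU-028. None of the calls of kinases, receptors and adaptors held with each array left out, and of those of other cytokines and chemokines 1 did, IL1A with 5-NA. The shares of all genes called, given with the counts of the list, are the background for these counts too.

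**Figure D4:**
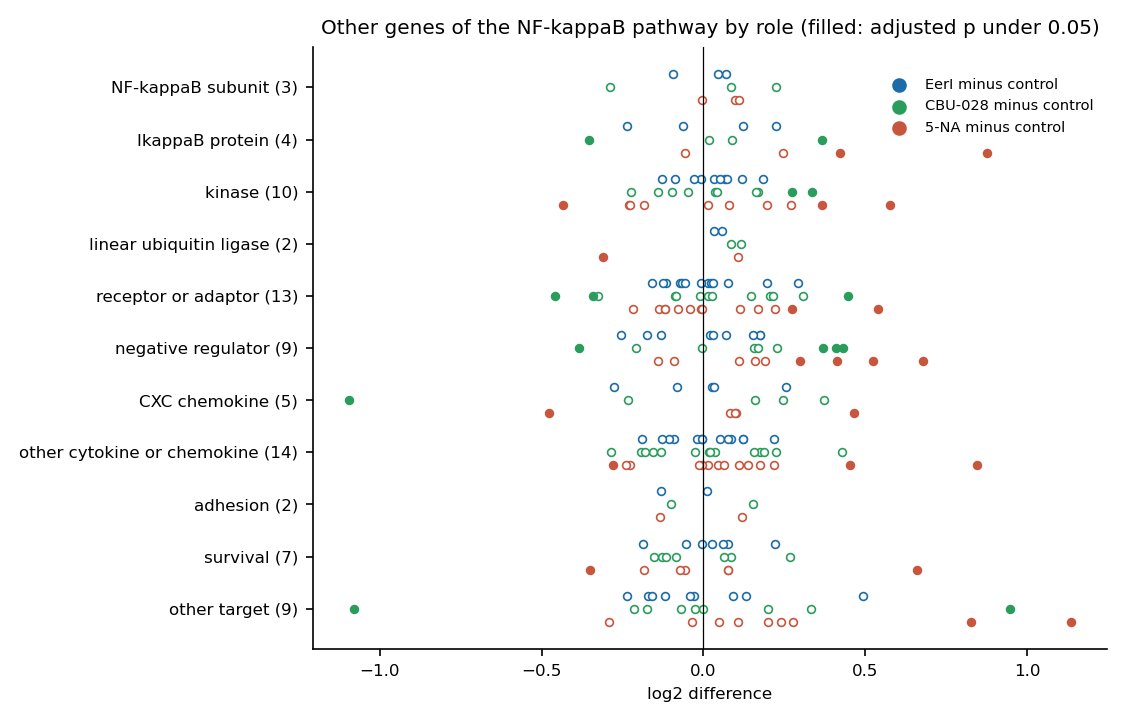
Log2 difference from control (horizontal axis) of each of 78 further genes of the NF-kappaB pathway, grouped by role (rows, number of genes in brackets), for EerI, CBU-028 and 5-NA; filled points have an adjusted p under 0.05 in limma. No EerI point is filled, and the filled points farthest from 0 are PTGS2 at 1.14 with 5-NA and CXCL6 at -1.09 with CBU-028.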

How the data were processed

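RNA was extracted with TRIzol and an RNeasy MinElute kit per the methods, or an RNeasy kit per the labels, and hybridized to Affymetrix arrays. The authors deposited log2 values made with RMA, which corrects background, gives all arrays 1 distribution and merges the probes of a probe set. Partek is named in the labels, and versions are not given in the sources used here. Probe set names match the HG-U133 Plus 2.0 array, while another array of that family is named in the methods. Such values hide any change in total RNA. Of the probe sets, 41097 had 1 gene symbol, 1801 several and 11777 none, and only the first were named. Group means were fitted over all 8 arrays with limma 3.58.1 in R 4.3.3 (4 residual degrees of freedom). Calls needed an adjusted p under 0.05 (Benjamini-Hochberg, within a comparison, over the whole array). The treatments were done in duplicates, which the study calls biological. The labels do not say whether these were separate cultures. The p-values rest on the spread between 2 samples a group, pooled over the groups. In limma this spread is also drawn towards that of all probe sets (5.08 prior degrees of freedom). The fit was tested on simulated data. The members, the pathway list and the tests were chosen with earlier results of these data known. Named genes were all members and up to 6 called pathway genes with the largest change per compound. Every CXC chemokine, subunit and IkappaB gene of the pathway list with a probe set was named too. So were the 5 genes nearest to the member that changed most with 5-NA. Alternatives were the methods' ANOVA, other thresholds, adjustments, filters on dim probe sets, normalizations and fits, and each array left out in turn. Sequences came from RefSeq. Python 3.11.15 with matplotlib 3.10.9 drew the figures.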

Additional observations from a re-analysis of the deposited data

How the results depend on the processing

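Of 1272 log2 differences of members recomputed under other settings, 1206 kept their direction and side of the threshold, 24 changed sign without a call under either setting, 34 lost the call, 8 gained it and 0 changed sign with a call. Against control, 0 members were called with EerI and 1, CXCL8, with p-values adjusted over all 6 comparisons or with array weights. With CBU-028, 0 were called, and 1 with the adjusted ANOVA, with representative probe sets alone adjusted or with probe sets under 5 or under 7 left out (TNFAIP3), and 1 when any probe set counted (CXCL8). With 5-NA, 2 were called, but 1 under either form of the ANOVA (CCL20 at 2-fold, RELB with adjustment), at 1.5-fold, at 2-fold, at an adjusted p under 0.01 or with probe sets under 7 left out, which removes CCL20. With CBU-028 against EerI, 0 were called and 1, RELB, with probe sets under 7 left out. With 5-NA against EerI, 4 were called, but 1 by the ANOVA at 2-fold, at 1.5-fold or at 2-fold, and 2 at an adjusted p under 0.01 or with probe sets under 7 left out. With 5-NA against CBU-028, 2 were called, but 1 under either form of the ANOVA (CCL20 at 2-fold, TNFAIP3 with adjustment), and 1, CCL20, at 1.5-fold, at 2-fold or with both groups fitted alone. With probe sets under 7 left out 2 were called, TNFAIP3 and RELB, which gained the call (adjusted p = 0.0270). The cause of these changes, beyond the stricter thresholds and the genes left out, was not tested.

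For the pathway list, the 14 calls with CBU-028 were 2 by the ANOVA at 2-fold, 6 by the adjusted ANOVA, 3 at 1.5-fold, 2 at 2-fold, 3 at an adjusted p under 0.01, 9 with array weights and 4 with both groups fitted alone. The 21 calls with 5-NA were 1, 12, 6, 1 and 9 under the first 5 of these settings in the same order. With each array left out in turn, where a lone sample is assumed to vary like the other groups, members called ranged from 1 to 2 for 5-NA against control, 2 to 4 for 5-NA against EerI and 2 to 2 for 5-NA against CBU-028, and were 0 in the other comparisons. Pathway genes called ranged from 3 to 15 with CBU-028 and 6 to 24 with 5-NA.

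Deviations of same-numbered samples had correlations of -0.15 to 0.15 over the pairs of groups. This shows no strong shared deviation by number, but cannot tell whether the samples were handled in pairs. With a replicate block the member counts were 0 with EerI, 0 with CBU-028 and 2 with 5-NA against control, 0 for CBU-028 against EerI, 4 for 5-NA against EerI and 2 for 5-NA against CBU-028, and the pathway counts 0 with EerI, 11 with CBU-028 and 16 with 5-NA.

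With 2 arrays a group the median SE of a log2 difference was 0.0990, so small changes of members could not be shown. The representative probe sets of CCL20, CXCL1, CXCL2 and CXCL8 had means under 7, at 6.79, 5.66, 6.51 and 5.60. The files give no direct background level. Genes that define other cell types, expected unexpressed in this line, had means of 4.63 to 9.15 (12 genes, median 6.70). RELB and ICAM1, at 7.26 each, and TNFAIP3, at 8.22, also lay in that range, and NFKB1 and NFKBIA lay above it. Levels of different probe sets cannot be compared, so it cannot be told which members were expressed.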
